A study of Rattus norvegicus with 3 samples.

Results

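Denervated soleus was set directly against tail-suspended soleus, to describe what loss of the nerve added to, or took from, loss of load. The comparison takes 2 of the 3 arrays of the series, 1 for group DN and 1 for group TS, and the third array, group Ct, was used to place each gene against muscle that kept both nerve and load. The soleus is a slow, postural calf muscle that is active almost whenever an animal stands. All rats were 7 weeks old, of a strain labelled Brown, and received continuous irradiation over 2 weeks to a total absorbed dose of 50 mSv, so the irradiation is shared by every group and its own effect was not measured. Group Ct had irradiation alone, group DN had its muscle denervated as well, and group TS was hung by the tail as well, which takes the weight off the hind limbs. The labels name neither the nerve that was cut, nor how long each treatment ran, nor the sex of the rats. RNA of 6 rats a group was pooled and put on 1 Affymetrix Rat Gene 1.0 ST array, although the series text speaks of 2 arrays. There was therefore no spread between samples and no test, and every difference below describes 3 pools.

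Of 14506 genes that carried exactly 1 symbol on the array, 10154 were compared, those with a 3-array mean no lower than the 30th percentile of such means, 5.72 on the log2 scale. The genes next to that limit had means of 5.721 just above it and 5.720 just below it. A difference is given as DN minus TS of the deposited log2 values, so 1 unit is 2-fold. Defining muscle transcripts were among the brightest on each array, with skeletal actin Acta1 at 13.99 in Ct, 13.90 in DN and 13.99 in TS and slow myosin Myh7 at 13.62 in Ct, 13.06 in DN and 13.24 in TS.

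A muscle fibre that loses its motor axon loses electrical activity and the signals of the nerve terminal, whereas a fibre unloaded by suspension keeps its nerve and can still be made to fire. Electrical activity of the fibre normally silences acetylcholine receptor genes away from the endplate. Load and the tonic firing of slow motor neurons together maintain the slow, oxidative character of the soleus. Both treatments waste the soleus and shift it towards faster contractile proteins.

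Over all genes compared, DN and TS mostly lay close together. The median difference was -0.0028, its quartiles were -0.21 and 0.00, and 90.9% of genes were within 1.5-fold. At least 2-fold higher in DN were 122 genes (1.20% of those compared), and at least 2-fold lower were 177 (1.74%). At 4-fold these counts were 25 and 31. At 1.5-fold, the limit used below for members of gene lists, 325 genes (3.20%) were higher in DN and 602 (5.93%) lower, and these shares are the background for every list. Over all probe sets the 3 arrays had nearly the same median (6.32 in Ct, 6.33 in DN and 6.35 in TS). Over the genes compared, however, TS read higher, with a median of 8.25 against 8.13 in DN and 8.12 in Ct. Centring each array on its median adds 0.13 to every DN minus TS difference. It moved the median difference from -0.0028 to 0.12, away from 0, with 6692 genes above 0 and 3462 below. That median was 0.02 after removing a trend on expression and 0.02 after quantile normalization, so centring shifted the typical gene most. The share of genes higher in DN among those past 2-fold therefore depended on the scaling, with 40.8% as deposited (122 higher, 177 lower), 56.2% after centring (167 and 130), 49.1% after removing a trend on expression (141 and 146) and 48.8% after quantile normalization (141 and 148). Equal values on both arrays were found for 26.3% of genes, and on single arrays a difference of 0 does not show that levels were equal. In whole muscle, fewer cells of a type and less RNA per cell cannot be told apart, and this holds for every difference below.

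**Figure D1:**
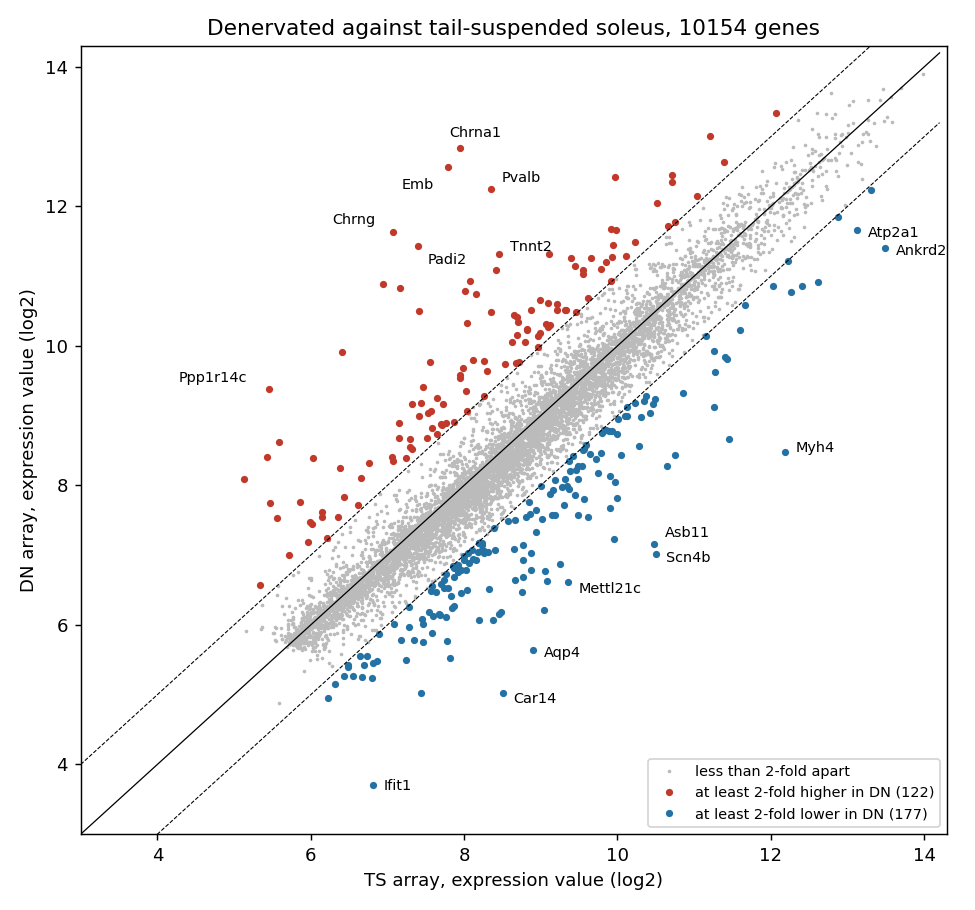
Expression value (log2) of each of the 10154 genes on the TS array (horizontal axis) and on the DN array (vertical axis), with the line of equality and dashed lines at 2-fold. The 122 red points are at least 2-fold higher in DN and the 177 blue points at least 2-fold lower, and Chrna1 and Myh4 lie furthest from equality on either side.

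The position of Ct, the irradiated muscle with nerve and load, showed which of the arrays stood apart. With 1.5-fold as the limit against Ct, 71 of the 122 genes higher in DN differed from Ct in DN only, 26 differed in both on the same side, 17 in TS only and 8 on opposite sides. Of the 26 on the same side, 25 stood above Ct in both arrays, so DN stood further from Ct than TS did, and Tceal7 alone stood below Ct in both. Of the 177 genes lower in DN, 77 were below Ct in DN only, 51 were above Ct in TS only, 24 differed on the same side, 18 on opposite sides and 7 in neither. In 19 of those 24 both arrays were below Ct and DN was the lower. The other 5 stood above Ct in both and higher in TS, namely Myh4, B3galt2, Cish, Tnni2 and Socs3. Centring reduced the 51 to 32, and adding 32 on the linear scale reduced the 77 to 49 and the 18 to 11.

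**Figure D2:**
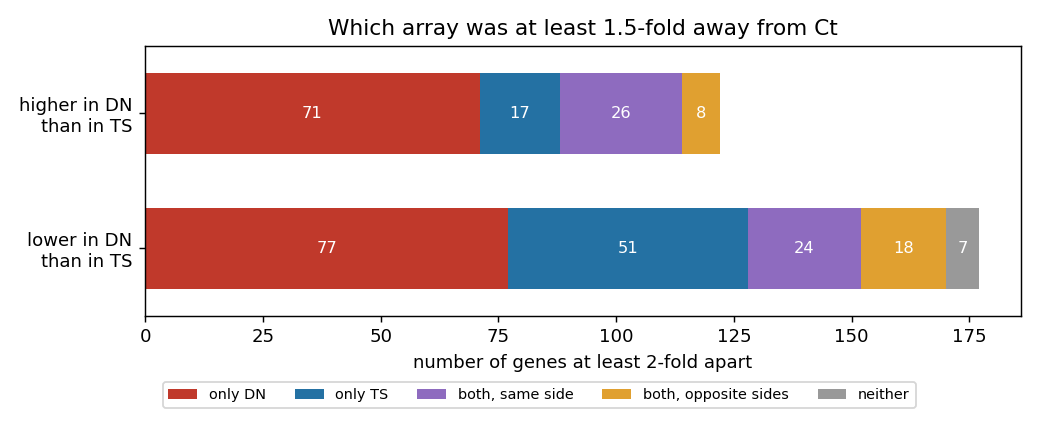
Number of genes (horizontal axis) at least 2-fold higher or lower in DN than in TS, split by which array was at least 1.5-fold away from Ct. The segment for DN only is the longest in both bars, with 71 of 122 and 77 of 177 genes, and the segment for TS only is longer among the genes lower in DN (51) than among those higher (17).

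The muscle acetylcholine receptor, the ion channel that opens when the nerve releases acetylcholine, had the highest median difference of the 41 gene lists. All 5 subunit genes were higher in DN, each by more than 1.5-fold, with a median difference of 2.68 against -0.0028 over all genes. Chrna1, the alpha subunit that binds acetylcholine, read 9.25 in Ct, 12.84 in DN and 7.94 in TS, a difference of 4.89 and a ratio of 29.7-fold, the highest of all genes compared. Here DN lay above Ct and TS below it, so the order was DN, Ct, TS. Chrng, the gamma subunit of the fetal receptor, read 6.88 in Ct, 11.64 in DN and 7.08 in TS (23.6-fold), and TS lay close to Ct. The delta subunit Chrnd read 9.58 in Ct, 11.09 in DN and 8.42 in TS, again with TS below Ct and DN above. Chrne, the epsilon subunit that replaces gamma in the adult receptor, read 6.87 in Ct, 8.33 in DN and 6.76 in TS, a difference of 1.57, against 4.56 for its fetal counterpart. Chrnb1, the beta subunit, was above Ct in both arrays, at 9.30 in Ct, 10.95 in DN and 9.98 in TS, and its difference of 0.97 was just short of 2-fold as deposited and past it after centring (1.10).

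Because the subunit genes stood apart together, the RefSeq promoter windows (GRCr8, 250 bases before to 50 after the gene start) of the 4 that were more than 2-fold apart are shown, with E-boxes (CANNTG, the motif bound by myogenic factors such as MyoD and myogenin, identical on both strands) and N-boxes (CCGGAA or its complement TTCCGG, a motif of ETS factors known from endplate genes) in capitals. The N-box and the letters CAGCTG were added to the search after the values were seen. The windows lie at chr3:78877304-78877603 on the minus strand for Chrna1, chr9:95325734-95326033 and chr9:95310066-95310365 on the plus strand for Chrng and Chrnd, and chr10:55834105-55834404 on the minus strand for Chrne.
Chrna1: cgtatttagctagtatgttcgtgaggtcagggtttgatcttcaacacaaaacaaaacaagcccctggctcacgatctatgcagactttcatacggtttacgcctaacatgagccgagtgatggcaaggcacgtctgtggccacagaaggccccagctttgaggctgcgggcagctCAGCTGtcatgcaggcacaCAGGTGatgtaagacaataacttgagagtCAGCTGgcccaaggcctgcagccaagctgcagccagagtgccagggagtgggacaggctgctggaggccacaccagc
Chrng: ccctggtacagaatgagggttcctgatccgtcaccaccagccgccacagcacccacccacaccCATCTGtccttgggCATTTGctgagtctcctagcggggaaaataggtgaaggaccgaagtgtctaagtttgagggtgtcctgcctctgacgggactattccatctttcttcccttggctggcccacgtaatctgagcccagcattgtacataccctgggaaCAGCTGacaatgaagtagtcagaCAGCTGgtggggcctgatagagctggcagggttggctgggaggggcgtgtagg
Chrnd: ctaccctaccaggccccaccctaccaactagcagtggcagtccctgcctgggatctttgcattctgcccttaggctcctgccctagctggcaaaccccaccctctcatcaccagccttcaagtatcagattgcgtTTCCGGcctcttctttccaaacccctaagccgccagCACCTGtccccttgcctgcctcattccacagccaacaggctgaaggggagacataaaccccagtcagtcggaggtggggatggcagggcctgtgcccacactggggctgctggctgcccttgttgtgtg
Chrne: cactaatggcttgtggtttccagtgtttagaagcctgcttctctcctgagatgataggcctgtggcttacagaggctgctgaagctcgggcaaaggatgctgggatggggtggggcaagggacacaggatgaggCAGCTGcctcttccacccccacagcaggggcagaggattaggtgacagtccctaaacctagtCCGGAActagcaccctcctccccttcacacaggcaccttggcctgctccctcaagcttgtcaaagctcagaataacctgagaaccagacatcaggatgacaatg

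Chrna1 held 3 E-boxes, at -75, -56 and -27 from the gene start, and Chrng held 4, at -187, -173, -26 and -3. In both, 2 of the E-boxes had the letters CAGCTG. Of 27457 rat promoter windows of this length, 15.1% held at least 1 of these and 1.68% held 2 or more. The letters were added with the values known, so these shares do not measure how unusual the windows are. Chrne, Chrnb1 and the endplate gene Musk held 1 CAGCTG each, and Chrnd held none. Ache, an endplate gene lower in DN, held 1 E-box with other letters. Chrnd and Chrne held 1 E-box each, at -79 and -116, and 1 N-box each, at -115 and -54. Chrnb1, whose difference was smallest, held 3 E-boxes and no N-box. At least 1 E-box was found in 71.6% of all windows, at least 2 in 37.9%, at least 3 in 15.9%, and an N-box in 15.8%. These matches describe the windows and are not evidence that a factor was bound.

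Genes that build or trim the endplate around the receptor went both ways. Of 21 measured, 4 were at least 1.5-fold higher in DN and 3 lower, and the median of -0.03 turned to 0.10 after centring. On the side of receptor clustering, the kinase Musk read 7.22 in Ct, 9.79 in DN and 8.27 in TS and its agrin co-receptor Lrp4 7.09 in Ct, 8.90 in DN and 7.76 in TS, so both were above Ct in TS and further above it in DN. Erbb2, a receptor chain for neuregulin, read 7.34 in Ct, 9.80 in DN and 8.11 in TS, and the scaffold protein Sntb1, a syntrophin, 7.29 in Ct, 9.26 in DN and 7.65 in TS. The lower members end or damp the cholinergic signal. Acetylcholinesterase, Ache, read 8.17 in Ct, 7.03 in DN and 8.87 in TS, below Ct in DN and above it in TS, and its collagen anchor Colq read 8.21 in Ct, 7.18 in DN and 8.20 in TS. Lynx1, a small protein that dampens nicotinic receptors, read 9.37 in Ct, 6.18 in DN and 8.48 in TS, lowest in DN. Rapsn, which anchors receptors beneath the membrane, differed by only 0.18.

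Regulators known to answer the loss of nerve activity were above Ct in both arrays in several cases, and furthest above it in DN. Of 21 measured, 8 were at least 1.5-fold higher in DN than in TS and 3 lower, with a median of 0.24, or 0.36 after centring. The transcription factor Runx1 read 7.99 in Ct, 11.66 in DN and 9.98 in TS, the myogenic factor Myod1 7.18 in Ct, 10.62 in DN and 9.09 in TS, and the cell cycle inhibitor Cdkn1a 8.50 in Ct, 12.45 in DN and 10.71 in TS. Gadd45a, a stress gene induced in denervated fibres, read 9.86 in Ct, 13.01 in DN and 11.21 in TS. For these 4 genes TS lay between Ct and DN, and DN exceeded TS by 1.52 to 1.80. Myog, myogenin, was nearly shared, at 10.08 in Ct, 11.95 in DN and 11.50 in TS, with a difference of 0.45. Ncam1, an adhesion molecule spread over denervated fibres, read 8.95 in Ct, 11.28 in DN and 9.93 in TS, and the deacetylase Hdac4, which represses activity-dependent genes, 7.80 in Ct, 9.12 in DN and 8.12 in TS. The lower members were Sesn1 (-1.01), the orphan receptor Nr4a1 (-0.90) and Hdac5 (-0.65).

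Beyond these lists, several genes were high in denervated muscle alone. Emb, which encodes embigin, an adhesion glycoprotein that also escorts lactate transporters to the membrane, read 8.21 in Ct, 12.56 in DN and 7.79 in TS. Padi2, an enzyme that turns arginine into citrulline, read 8.27 in Ct, 11.44 in DN and 7.40 in TS, with TS below Ct, and Ctxn3, a cortexin, 6.69 in Ct, 10.89 in DN and 6.94 in TS. The ratio of DN to TS was 27.3-fold for Emb and 15.5-fold for Ctxn3. Klk1, tissue kallikrein, read 7.02 in Ct, 10.83 in DN and 7.17 in TS, and Tph1, the enzyme that opens serotonin synthesis, 6.16 in Ct, 9.92 in DN and 6.41 in TS. In both, TS stayed within 1.5-fold of Ct. The other genes among the 15 highest were Ppp1r14c, an inhibitor of protein phosphatase 1 (3.92), Adap2 (3.09), Clrn1 (3.04), Dhrs9 (2.98), the solute transporter Slc51a (2.96) and the glutathione transferase Mgst2 (2.86), beside Pvalb and Tnnt2 described below. Ppp1r14c, Clrn1, Dhrs9 and Slc51a read under the filter limit of 5.72 in both Ct and TS. These genes passed only through DN, so they had to be higher in DN, and the size of a difference from so dim a value is less certain. Altogether 8 of the 122 genes higher in DN read below that limit in TS, and 19 of the 177 lower genes read below it in DN.

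**Figure D3:**
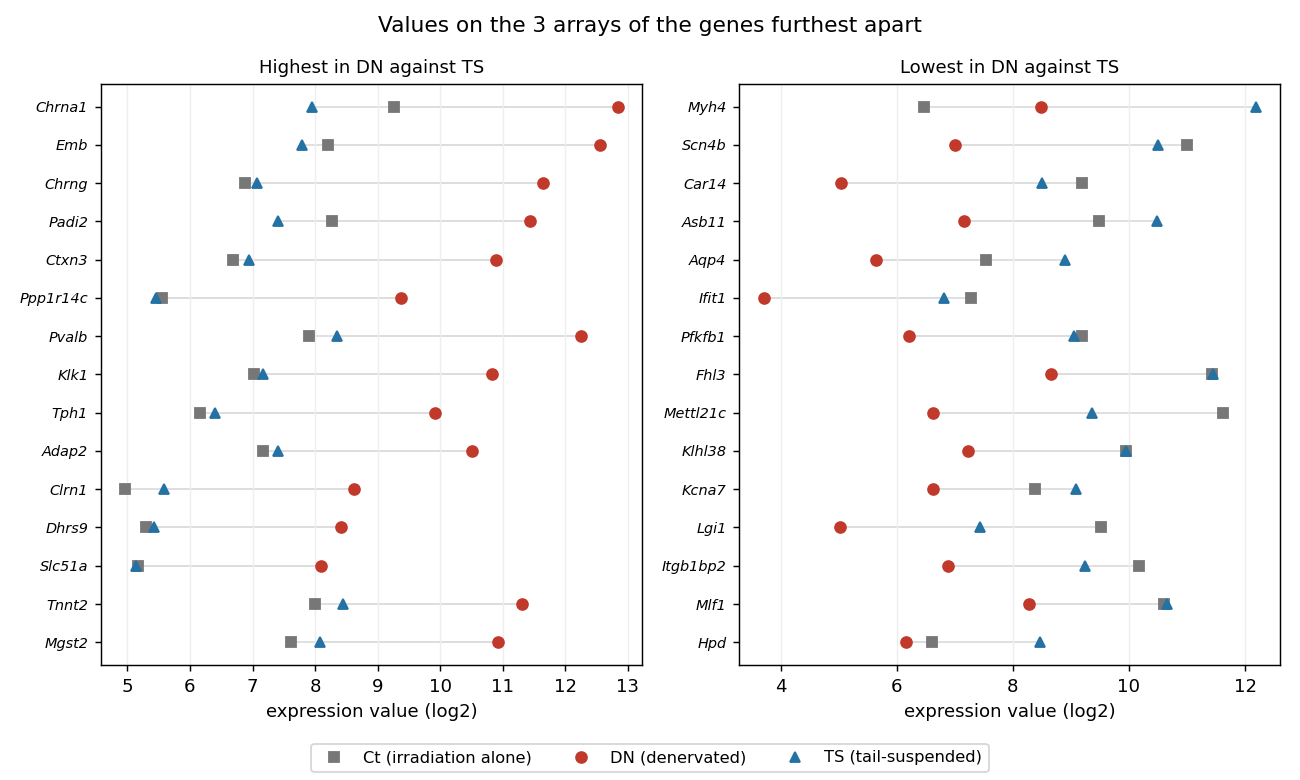
Expression values (log2, horizontal axis) on the Ct, DN and TS arrays for the 15 genes with the highest and the 15 with the lowest DN minus TS difference, 1 gene a row. On the left DN stands apart while Ct and TS lie near each other for most genes, whereas on the right DN is the lowest array for every gene except Myh4, for which Ct is lowest.

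At the other end, the voltage-gated sodium channel subunit Scn4b read 11.00 in Ct, 7.01 in DN and 10.50 in TS, a value 11.2-fold lower in DN than in TS. Car14, a membrane carbonic anhydrase, read 9.20 in Ct, 5.03 in DN and 8.50 in TS, and Mettl21c, a lysine methyltransferase of muscle, 11.62 in Ct, 6.62 in DN and 9.36 in TS. The latter was lower than Ct in both arrays and lowest in DN, as were Lgi1 (-2.42) and Itgb1bp2, which encodes the integrin-binding protein melusin (-2.37). Aqp4, the water channel of fast fibre membranes, went apart in both directions, at 7.53 in Ct, 5.64 in DN and 8.90 in TS. Fhl3 (-2.79), a LIM domain protein, and Mlf1 (-2.37) differed from Ct in TS by 0.03 and 0.05 and were far below it in DN. Ifit1, an interferon-induced gene, read 7.28 in Ct, 3.71 in DN and 6.82 in TS, and in DN it was below the filter limit.

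Fast contractile genes that differed by 1.5-fold or more stood higher in TS than in DN, with the exception of Pvalb. Of 15 measured, 6 read 1.5-fold or more below TS in DN and 1 above it, with a median of -0.48 (-0.36 after centring). Against Ct, 8 were at least 1.5-fold higher in DN, where 4.93% of all genes were, and 11 in TS, where 5.89% were. Myh4, the myosin of the fastest limb fibres, read 6.46 in Ct, 8.48 in DN and 12.19 in TS, so TS was 13-fold above DN, the largest difference in that direction. Myh1, the myosin of the next slower class, was above Ct in both arrays, at 8.26 in Ct, 11.99 in DN and 12.19 in TS, and its difference was -0.20. Myh2, the fast oxidative myosin, differed by -0.48. Myosin heavy chain genes are close in sequence, and how far their probes share signal was not tested.

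Some fast sarcomere genes were also higher in TS, while others lay close together. Tnni2, fast troponin I, read 8.49 in Ct, 9.85 in DN and 11.40 in TS, and Mybpc2, fast myosin-binding protein C, 5.49 in Ct, 6.01 in DN and 7.46 in TS. Myoz1, a Z-disc protein of fast fibres, read 9.44 in Ct, 8.44 in DN and 10.75 in TS, and Mylk2, the kinase of the myosin light chain, 10.79 in Ct, 9.13 in DN and 11.25 in TS, so both were below Ct in DN and above it in TS. Tnnt3, fast troponin T, at 11.43 in Ct, 12.63 in DN and 12.51 in TS, and Tnnc2, fast troponin C, at 11.18 in Ct, 12.76 in DN and 13.04 in TS, were above Ct in both arrays with little between them. Myl1, a fast light chain, and Actn3, the fast Z-disc actinin, differed by 0.26 and -0.50. Atp2a1, the fast calcium pump, read 12.09 in Ct, 11.67 in DN and 13.13 in TS. The exception was Pvalb, the calcium buffer parvalbumin of fast fibres, at 7.91 in Ct, 12.24 in DN and 8.35 in TS, 14.8-fold higher in DN. Thus the pump was higher in TS and the buffer higher in DN.

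Slow contractile genes differed by less than 1.5-fold between DN and TS for most members. None of 18 was at least 1.5-fold higher in DN than in TS and 4 were lower, with a median of -0.18 (-0.06 after centring). Against Ct, 9 of 18 were at least 1.5-fold lower in DN (5.53% of all genes) and 3 in TS (2.68%). The main slow myosin Myh7 differed by only -0.18. The slow light chain Myl3 read 13.70 in Ct, 12.40 in DN and 13.19 in TS, and cardiac calsequestrin Casq2, which stores calcium in slow fibres, 12.29 in Ct, 11.21 in DN and 12.22 in TS. Tead1, a transcription factor of slow muscle genes, read 9.17 in Ct, 8.28 in DN and 9.48 in TS.

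Developmental muscle genes showed no single pattern, with members above Ct in both arrays, in DN only or, for Nes, mainly in TS. Of 20 measured, 6 were at least 1.5-fold higher in DN and 2 lower, with a median of 0.0062. Embryonic myosin Myh3 was nearly equal, at 9.98 in Ct, 12.23 in DN and 12.41 in TS. Tnnt2, the troponin T of embryonic and cardiac muscle, was high in DN only, at 8.01 in Ct, 11.31 in DN and 8.45 in TS. Myf5, a factor of muscle precursor cells, read 8.15 in Ct, 10.15 in DN and 8.97 in TS, and the fusion gene Mymk 6.57 in Ct, 7.86 in DN and 7.11 in TS. Nes, the intermediate filament nestin, was the opposite case, at 7.43 in Ct, 7.88 in DN and 9.12 in TS. Of 16 satellite cell markers, 1 was past 1.5-fold as deposited, Myf5, and 3 after centring.

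Genes that set the electrical behaviour of the fibre membrane were mostly lower in DN where they differed. Of 24 channel genes measured, 7 were at least 1.5-fold lower and 2 higher, with a median of -0.21 (-0.08 after centring). Clcn1, the chloride channel that stabilises the resting membrane, read 8.50 in Ct, 6.78 in DN and 8.87 in TS, and the potassium channel Kcna7 8.38 in Ct, 6.63 in DN and 9.09 in TS. Kcnj2, an inward rectifier, read 10.47 in Ct, 8.99 in DN and 10.12 in TS. In all of these TS was within 1.5-fold of Ct or above it, while DN was below. Kcnn3, the small-conductance calcium-activated potassium channel known from denervated muscle, was highest in DN, at 9.03 in Ct, 11.26 in DN and 9.65 in TS. The pore-forming sodium channel of adult muscle, Scn4a, differed by -0.40 only.

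Calcium release and membrane architecture genes had 7 of 36 members at least 1.5-fold lower in DN and 3 higher, with a median of -0.16 (-0.03 after centring). Cav3, muscle caveolin, read 9.54 in Ct, 7.82 in DN and 9.99 in TS, and Jph2, which holds the junction between tubule and calcium store, 10.49 in Ct, 9.59 in DN and 10.52 in TS. The release channel Ryr1 read 10.71 in Ct, 11.08 in DN and 11.79 in TS, above Ct in both arrays. Sln, the pump inhibitor sarcolipin, and Pln, phospholamban, were on the higher side, with differences of 0.60 and 0.68.

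Many genes of glucose use stood lower in DN than in TS. Of 38 glycolysis and glycogen genes, 17 were at least 1.5-fold lower in DN and none higher, against 5.93% and 3.20% of all genes, with a median of -0.54 (-0.42 after centring). Against Ct the medians were -0.27 in DN and 0.07 in TS. Pfkfb1, which makes and removes the activator of phosphofructokinase, read 9.19 in Ct, 6.21 in DN and 9.05 in TS. Slc16a3, the lactate exporter, read 8.91 in Ct, 6.77 in DN and 9.05 in TS, and Slc2a4, the insulin-responsive glucose transporter GLUT4, 11.73 in Ct, 9.82 in DN and 11.42 in TS. For these 3 genes TS stayed close to Ct while DN lay well below. In others TS was the array away from Ct, among them hexokinase Hk2, at 10.17 in Ct, 10.14 in DN and 11.15 in TS, and the phosphorylase kinase subunit Phkg1, at 8.29 in Ct, 8.0 in DN and 9.35 in TS. Fbp2, muscle fructose bisphosphatase, did both, at 6.63 in Ct, 5.76 in DN and 7.47 in TS.

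Many mitochondrial genes read below Ct in both arrays, and some of them lower in DN than in TS. Among the 72 subunits of oxidative phosphorylation, 51 lay 1.5-fold or more below Ct in DN (5.53% of all genes) and 26 in TS (2.68%). Directly compared, 13 read 1.5-fold or more below TS in DN and 1 above it (8 and 2 after centring), with a median of -0.32 (-0.19 after centring). Ndufs3, a core subunit of complex I, read 11.98 in Ct, 10.35 in DN and 11.13 in TS, and Ndufb7, of the same complex, 10.78 in Ct, 9.63 in DN and 10.43 in TS. Ndufb4 was the higher member, at 10.79 in Ct, 10.40 in DN and 9.60 in TS. Of 26 genes of pyruvate entry and the citric acid cycle, 7 were at least 1.5-fold lower (4 after centring) and none higher, with a median of -0.41 (-0.28 after centring). Pdk4, the kinase that shuts pyruvate dehydrogenase, led that list with TS above Ct, at 11.26 in Ct, 10.92 in DN and 12.62 in TS, and the pyruvate carrier Mpc1 read 10.72 in Ct, 8.82 in DN and 9.64 in TS.

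Perm1, a muscle regulator of oxidative genes, was the furthest apart of 36 oxidative regulators and angiogenic genes, at 10.39 in Ct, 6.06 in DN and 8.19 in TS. In that list 8 were at least 1.5-fold lower in DN and 1 higher, with a median of -0.32 (-0.20 after centring). The coactivator Ppargc1a differed by -0.43, the secreted protein precursor Fndc5 by -1.13 and the nuclear receptor Ppara by -0.69. Prkag3, the AMP kinase subunit of fast muscle, was the higher member, at 7.55 in Ct, 9.99 in DN and 8.96 in TS.

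Genes of fat use went both ways. Of 40 genes, 5 were at least 1.5-fold higher in DN and 5 lower, with a median of -0.0053. After removing a trend on expression the counts were 5 and 4 (median 0.02), and after quantile normalization 5 and 4 (median 0.0027). Centring, which adds to every difference, gave 9 and 4, with a median of 0.12. Against Ct, 27 were at least 1.5-fold lower in DN (5.53% of all genes) and 25 in TS (2.68%). Single members stood out. Ucp3, the uncoupling protein of muscle, read 9.26 in Ct, 11.15 in DN and 9.44 in TS, and Plin2, which coats lipid droplets, 10.13 in Ct, 11.67 in DN and 9.92 in TS, so both were high in DN only. Acsl6, an acyl-CoA synthetase, went apart in both directions, at 8.58 in Ct, 7.57 in DN and 9.48 in TS.

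**Figure D4:**
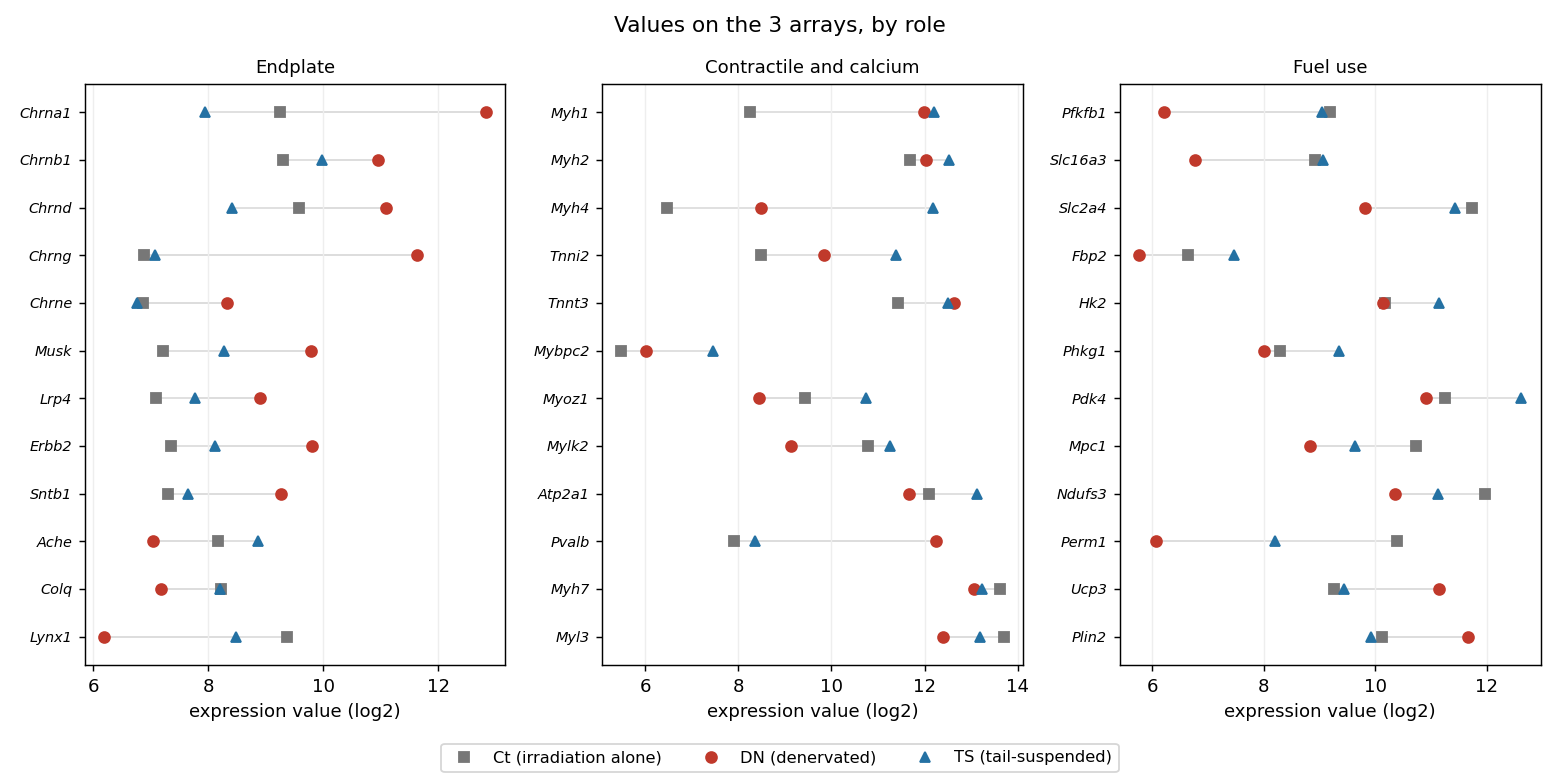
Expression values (log2, horizontal axis) on the Ct, DN and TS arrays for 12 genes each of the endplate, of contraction and calcium handling, and of fuel use, 1 gene a row. Among endplate genes DN is highest for the receptor subunits and lowest for Ache, Colq and Lynx1, Myh4 and Pvalb point in opposite directions, and DN is the lowest array for most fuel genes except Ucp3 and Plin2.

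Genes that respond to stretch and contraction went both ways. Of 25, 9 were at least 1.5-fold higher in DN than in TS and 5 lower, with a median of 0.14 (0.27 after centring). Immediate early transcription factors made up most of the higher members. Egr1 read 9.60 in Ct, 10.49 in DN and 8.35 in TS, Fos 10.01 in Ct, 10.24 in DN and 8.82 in TS and Egr2 6.96 in Ct, 7.55 in DN and 6.14 in TS. Atf3 read 11.76 in Ct, 11.49 in DN and 10.23 in TS and Junb 9.04 in Ct, 10.69 in DN and 9.62 in TS. In Egr1, Fos, Egr2 and Atf3 the TS array was below Ct, whereas Junb was above Ct in both. Not every such factor on the list was higher in DN. Myc was lower, at 8.10 in Ct, 8.43 in DN and 9.18 in TS, and Egr3 read 6.52 on each array. Of the muscle ankyrin repeat genes, Ankrd1 was above Ct in both, at 9.01 in Ct, 13.24 in DN and 12.36 in TS, whereas Ankrd2, a stretch-responsive gene of slow fibres, was lower in DN only, at 13.40 in Ct, 11.40 in DN and 13.49 in TS. Lmcd1, a LIM protein, and Srf, serum response factor, were lower in DN, with differences of -1.54 and -0.94.

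Ubiquitin ligase genes that differed by 1.5-fold or more were mostly lower in DN, with the largest differences in 3 substrate adaptors. Fbxo32, also called atrogin-1, read 10.77 in Ct, 10.90 in DN and 11.42 in TS, and Trim63, also called MuRF1, 11.02 in Ct, 11.33 in DN and 11.57 in TS, both a little higher in TS, by less than 1.5-fold. Of 33 ligase and ubiquitin genes, 10 were at least 1.5-fold lower in DN and 1 higher, and after centring 6 and 3. The median was -0.06 and turned to 0.07 after centring. The SOCS box adaptor Asb11 read 9.48 in Ct, 7.16 in DN and 10.48 in TS, and the kelch adaptor Klhl38 9.95 in Ct, 7.23 in DN and 9.95 in TS. Asb4 read 8.15 in Ct, 6.64 in DN and 8.66 in TS. In these 3 genes DN alone was below Ct, and Asb11 was also above Ct in TS. Asb2, at 11.77 in Ct, 9.59 in DN and 10.34 in TS, was below Ct in both. Further adaptors of the same families were also at least 1.5-fold lower in DN as deposited, namely Klhl31 (-1.09), Asb10 (-0.83), Asb16 (-0.69) and Asb18 (-0.64). Others lay within 1.5-fold, among them Asb5 (0.31), Klhl40 (-0.06) and Klhl41 (0.47). Fbxo30, a further ligase known from atrophy, was the member higher in DN, at 9.22 in Ct, 10.31 in DN and 9.38 in TS.

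Growth factor and myostatin pathway genes mostly lay within 1.5-fold. Of 46 genes, 6 were at least 1.5-fold higher and 3 lower, with a median of 0.00. Fst, follistatin, read 7.61 in Ct, 10.34 in DN and 8.70 in TS, and Chrd, chordin, which binds BMPs, 7.11 in Ct, 8.66 in DN and 7.30 in TS. Fgf7 read 9.03 in Ct, 11.31 in DN and 9.10 in TS, with TS equal to Ct within 0.08. Among other antagonists of the TGF-beta family, Nog, noggin, differed by 0.00 and the follistatin-like gene Fstl3 by 0.41, and the ligand Tgfb2 was 0.70 higher in DN. Cish and Socs3, which damp cytokine signalling, were above Ct in both arrays and higher in TS, at 6.54 in Ct, 7.33 in DN and 8.93 in TS and 6.99 in Ct, 7.98 in DN and 9.28 in TS. Myostatin, Mstn, differed by 0.23.

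Targets of the glucocorticoid receptor, which carries the response to stress steroids, were higher in TS for those that differed most. Zbtb16 read 9.53 in Ct, 8.56 in DN and 10.28 in TS, Fkbp5 7.72 in Ct, 7.65 in DN and 8.94 in TS and Tsc22d3 9.75 in Ct, 8.95 in DN and 10.01 in TS. Klf15 read 6.86 in Ct, 6.56 in DN and 7.58 in TS. In Fkbp5 and Klf15 DN lay within 0.30 of Ct, so TS was the array that stood apart, whereas in Tsc22d3 it was DN. The whole list, which also holds FOXO targets, had 6 of 23 members at least 1.5-fold lower in DN and 4 higher, with a median of -0.15 (-0.02 after centring). The metallothionein Mt1 was above Ct in both and higher in DN, at 9.02 in Ct, 11.67 in DN and 10.85 in TS.

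Many proliferation genes were higher in suspended muscle. Of 22 cell cycle genes, 10 were at least 1.5-fold lower in DN and none higher, with a median of -0.53 (-0.41 after centring). Against Ct, 9 of 22 were at least 1.5-fold higher in TS (5.89% of all genes) and none in DN (4.93%). In DN 2 were lower (5.53%). Ccnb1, cyclin B1, read 6.14 in Ct, 5.49 in DN and 7.24 in TS, the nucleotide reductase subunit Rrm2 6.78 in Ct, 6.27 in DN and 7.87 in TS, and the checkpoint kinase Bub1 7.15 in Ct, 6.41 in DN and 7.82 in TS. Cdc20, which triggers anaphase, read 6.65 in Ct, 6.09 in DN and 7.45 in TS. These values are dim, and 5 further list members (Birc5, Bub1b, Ccna2, Ccne1 and Cdk1) did not pass the filter. Macrophage markers stood apart in the same direction, with 3 of 15 at least 1.5-fold lower in DN (1 after centring) and none higher, and a median of -0.36 (-0.24 after centring). Summed on the linear scale, these markers came to 8743 for Ct, 9613 for DN and 11905 for TS. Cd163 read 8.55 in Ct, 8.86 in DN and 9.72 in TS, and the part of these cells in the cell cycle values was not tested.

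Ribosomal proteins and proteasome subunits had medians a little below 0, whereas autophagy genes did not. Of 68 cytosolic ribosomal proteins, 3 were at least 1.5-fold lower and 2 higher as deposited, 0 and 3 after centring, and 6 and 2 after quantile normalization. Their median was -0.21 as deposited, -0.19 after removing a trend on expression, -0.23 after quantile normalization and -0.09 after centring. In DN 50 of the 68 read below TS and 13 above. For 36 proteasome subunits the median was -0.14, and in the same order -0.12, -0.15 and -0.02. Of these, 29 read below TS in DN and 3 above. Psmd8 (-0.68) was the member past 1.5-fold as deposited, and 0 were past it after centring. Srm, which makes the polyamine spermidine, read 9.55 in Ct, 9.04 in DN and 10.43 in TS, and Nop56, a core protein of ribosome assembly, 10.04 in Ct, 9.85 in DN and 10.72 in TS. For autophagy and lysosome genes the median was 0.02, with the cargo receptor Nbr1 (0.88) the 1 member of 38 past 1.5-fold (3 after centring).

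Some transcripts typical of liver and blood were higher in the TS pool. Alb, serum albumin, read 5.97 in Ct, 6.48 in DN and 8.76 in TS, Hpd, a liver enzyme of tyrosine breakdown, 6.60 in Ct, 6.15 in DN and 8.46 in TS, and the heme carrier Hpx 5.25 in Ct, 5.25 in DN and 6.67 in TS. The red cell and plasma protein list, which also holds the liver enzyme Hpd, had 14 genes on the array, of which 9 passed the filter. At least 1.5-fold lower in DN were 5 of those 9, Hpd among them, and none was higher. The median of the 9 was -0.88 (-0.76 after centring, and -0.58 with 4 lower after quantile normalization). Hpx was under the filter limit in Ct and DN and passed only through TS, so it had to differ, and the count and median are a description only. The globin Hbb read 10.94 in Ct, 10.58 in DN and 11.50 in TS, whereas Hbb-b1 read 10.52 in Ct, 9.99 in DN and 10.41 in TS, with TS below Ct. Apoe (0.06) and Tf (-0.10) were within 1.5-fold. Of the 5 members under the filter limit, the fibrinogen chain Fga at 4.25 in Ct, 4.25 in DN and 5.20 in TS, haptoglobin Hp at 5.40 in Ct, 5.40 in DN and 6.01 in TS and transthyretin Ttr at 4.88 in Ct, 4.88 in DN and 5.38 in TS also read highest in TS, and Fgb and Slc4a1 were equal on all 3 arrays. The apolipoprotein Apoa1, which passed, read 5.88 in Ct, 5.88 in DN and 5.96 in TS. The source of these transcripts in the TS pool, and its part in other differences, was not tested.

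Markers of other cell types differed less. Adipocyte markers had a median of -0.02, with the desaturase Scd (1.48) past 1.5-fold in 1 of 12 (2 after centring), and fibroblast markers a median of 0.00 with 0 of 12 past it (1 after centring). Endothelial markers had 2 of 16 lower in DN (1 after centring), Esam (-0.77) and Flt1 (-0.58), and smooth muscle and pericyte markers 1 of 13, Cspg4 (-1.25). Of 10 Schwann cell and nerve markers, 1 was higher in DN, Egr2, and 2 were lower, Mal and Prx, which belong to myelin. Mal read 7.11 in Ct, 6.76 in DN and 7.92 in TS, and Prx 6.69 in Ct, 6.38 in DN and 7.36 in TS, so in both it was TS that stood at least 1.5-fold from Ct. The defining Schwann cell factor Sox10 read 6.48 on all 3 arrays and the myelin gene Mbp 6.59, and such equal values do not show that levels were equal. Tendon markers had 2 of 9 higher in DN, Egr1 and the tendon factor Scx (0.96), and 0 lower (3 higher after centring). Of 8 lymphocyte, neutrophil and mast cell markers past the filter none was past 1.5-fold.

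Among the remaining lists, antioxidant enzymes and metallothioneins had 5 of 31 higher and 4 lower in DN (5 and 2 after centring), led by Nqo1, a quinone reductase, which was low in TS at 10.06 in Ct, 10.52 in DN and 8.87 in TS, and by the peroxidase Gpx1, which was low in DN at 13.07 in Ct, 11.85 in DN and 12.88 in TS. Interferon and antigen presentation genes had 3 of 26 higher and 1 lower, with B2m, the light chain of MHC class I, at 12.80 in Ct, 13.34 in DN and 12.06 in TS. Of 15 clock genes 2 were higher, Bhlhe41 (1.33) and Dbp (0.94), and 2 lower, Nfil3 (-1.58) and Cry1 (-1.08). Collagen and matrix genes had 1 of 27 higher (2 after centring), Ogn (1.25), and 0 lower. Matrix enzymes had 4 of 28 lower and 0 higher, led by the protease Adamts1 (-1.0), but 2 lower and 2 higher after centring. Heat shock genes had none of 24 past 1.5-fold in either direction, and 1 higher after centring. Of 9 calpain genes 1 was lower, Capn3 (-0.75), and after centring 1 was also higher. Of 34 nuclear import and translation genes 2 were lower, Nop56 and Kpnb1 (-0.62), and 1 after centring. Of 13 polyamine genes 2 were higher, Sms (0.82) and Sat1 (0.71), and 2 lower, Srm and Smox (-0.68), of which 1 was left after centring. Among p53 targets, 3 of 19 were higher, Gadd45a, Cdkn1a and Plk2 (0.74), and Sesn1 was lower.

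**Figure D5:**
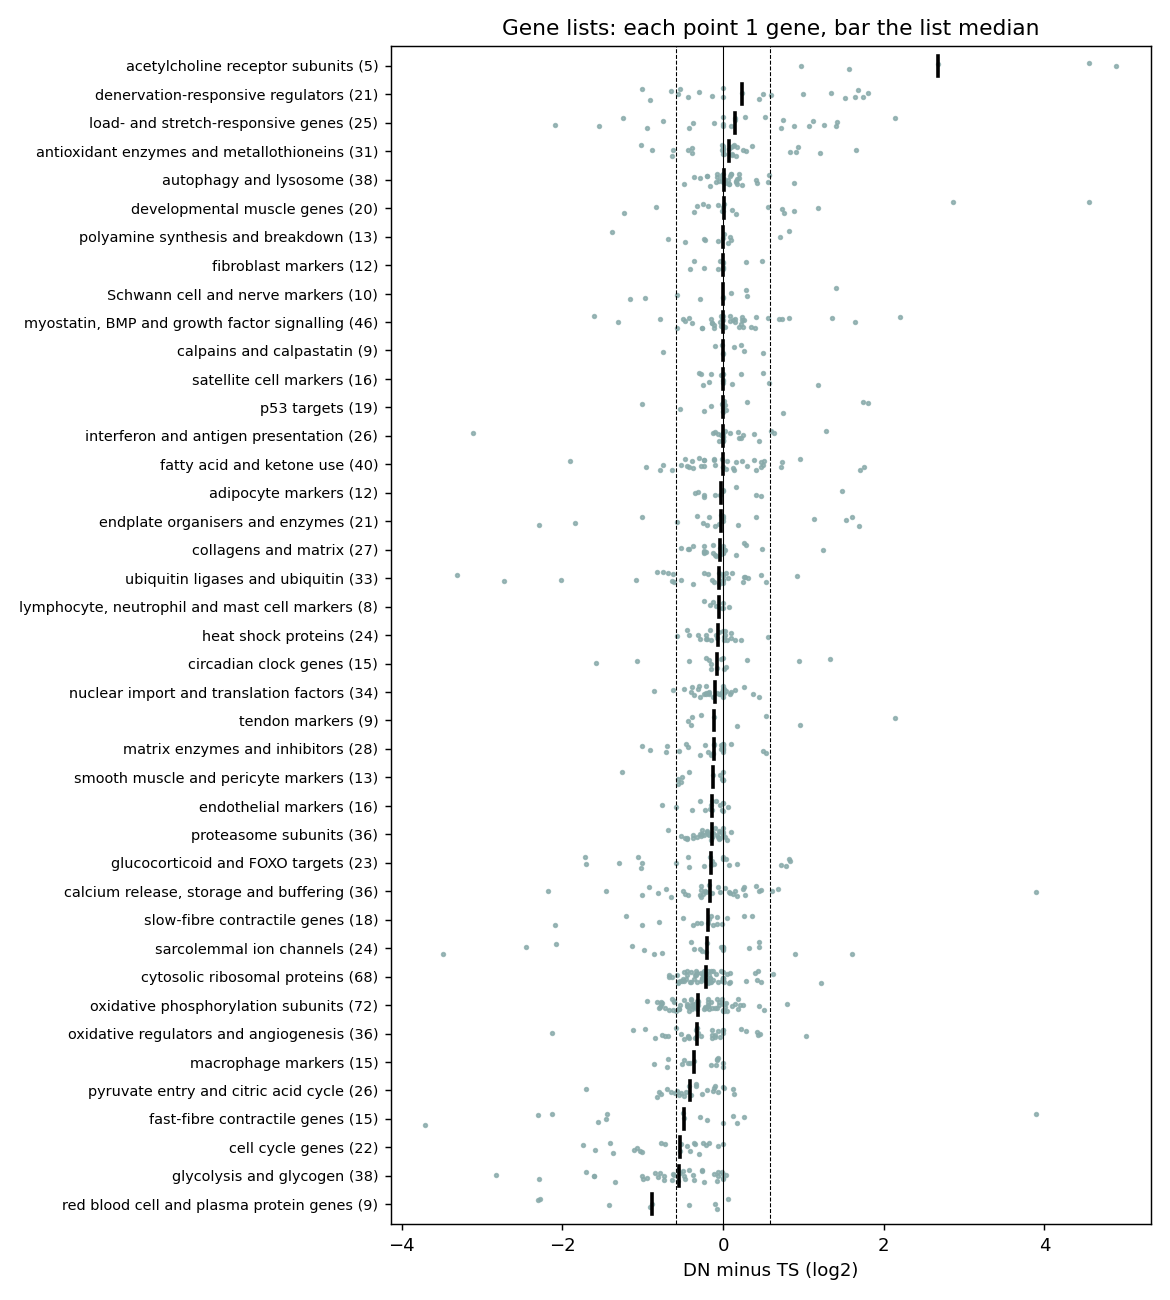
DN minus TS (log2, horizontal axis) of each list member that passed the filter (points) and the median of each list (black bars), with the number of such members in brackets and dashed lines at 1.5-fold, for the 41 lists ordered by median. Acetylcholine receptor subunits lie at the top. The glycolysis and glycogen, cell cycle and fast-fibre lists lie near the bottom, above the 9 genes of the red cell and plasma protein list, which also holds Hpd.

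A further probe set past the filter allowed a check within these arrays. Over 401 genes with one, the median disagreement in DN minus TS was 0.09 and its 95th percentile 0.76. Of 9 genes at least 2-fold apart, all 9 had the same direction on the further probe set and 3 were again past 2-fold (Klhl31, Krt18 and Rrm2). Dusp26 (-1.18 on the brightest and -0.03 on the further probe set), Minpp1 (1.07 and 0.24) and Ssb (1.19 and 0.15) were mostly carried by 1 probe set.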

How the data were processed

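Soleus RNA of 3 rat groups, pooled within each, was hybridised to 1 Affymetrix Rat Gene 1.0 ST array a group. The deposited values are log2 expression values that the authors summarised by RMA over core exons with Affymetrix Expression Console, per the submitters' processing notes and the labels, which name neither a version nor a log base (base 2 was taken from the range of the values). RMA corrects background, equalises the arrays' distributions and fits probe effects across the arrays it is given, so the arrays are not processed independently.

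Of 29170 probe sets, 15310 carried 1 gene symbol, 323 several and 13537 none, and 15279 of the first were matched to RefSeq. The probe set with the highest mean stood for a gene. Differences were taken in Python 3.11.15 with pandas 2.3.3 and statsmodels 0.14.6 and checked on simulated data, with no p-value since each group has 1 array. Gene list limits were 1.5-fold and gene limits 2-fold. The alternatives were centring, a loess trend, quantile normalization, 32 added on the linear scale, other filters, other fold limits and other probe set rules. Promoter windows came from RefSeq.

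Members and gene lists were chosen with earlier results of these data known. The rule for genes to name took the 15 at either end, the 4 members furthest from 0 in each list and a set of well-known denervation and fibre type genes (184 in all). Not all of these are named above. Chosen after their values were seen were Acta1, Tceal7, B3galt2, Tnni2, Socs3, Lrp4, Colq, Rapsn, Ncam1, Hdac4, Nr4a1, Hdac5, Mybpc2, Tnnt3, Tnnc2, Myl1, Actn3, Myh3, Mymk, Kcnj2, Scn4a, Jph2, Ryr1, Sln, Pln, Slc2a4, Hk2, Phkg1, Ndufs3, Ppara, Atf3, Junb, Myc, Egr3, Srf, Asb5, Asb10, Asb16, Asb18, Klhl40, Klhl41, Fbxo30, Nog, Fstl3, Tgfb2, Klf15, Mt1, Birc5, Bub1b, Ccna2, Ccne1, Cdk1, Hbb-b1, Apoe, Tf, Fga, Hp, Ttr, Fgb, Slc4a1, Apoa1, Sox10, Mbp, Krt18, Dusp26, Minpp1 and Ssb.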

Additional observations from a re-analysis of the deposited data

Results flagged for a closer look

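Probe sets that carried no gene symbol took no part in the comparisons. Of 6448 such probe sets past the same filter limit, 138 were at least 2-fold higher in DN than in TS and 113 at least 2-fold lower. These 251 are 3.89% of them, against 2.94% of the genes compared. Their differences on the log2 scale ran from -4.31 to 5.52, so some lay further from equality than Chrna1 and Myh4. With 1 array a group, these values have no replicate check, and no group was large enough to look for a single array far from its fellows.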

How the results depend on the processing

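With 1 pooled array a group, no value has an error, and the number of arrays limits the precision. No gene past 2-fold among the 184 chosen by rule turned direction under the scalings and probe set rules tried. No list median at least 0.3 from 0 turned direction under these or under the filters tried. List medians nearer 0 did turn from negative to positive after centring. These were the endplate, ubiquitin ligase, fatty acid, nuclear import, heat shock, collagen, matrix enzyme, clock, lymphocyte, adipocyte, smooth muscle and tendon lists. Centring adds 0.13 to every list median, so those below 0 by less than this had to turn. After removing a trend on expression and after quantile normalization, the ubiquitin ligase, nuclear import, heat shock, collagen, matrix enzyme, smooth muscle and tendon medians stayed negative. Of the results for single genes, 1056 stayed on their side of 2-fold, 22 no longer reached it and 12 newly did, and for lists the numbers were 385, 15 and 10.

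The counts of genes apart depended on the limit. At 1.5-fold 325 genes were higher in DN and 602 lower, and at 3-fold 50 and 52. After centring, the genes higher in DN with neither array 1.5-fold from Ct were 2 rather than 0, those lower in DN with TS alone away from Ct were 32 and those with neither 3. Removing a trend on expression gave 1 for the first of these, and quantile normalization gave 1, with 4 for the last. With 32 added on the linear scale, 49 genes lower in DN had DN alone away from Ct and 11 had both on opposite sides. With the filter at the 50th percentile, 29 had TS alone away and 4 neither. The other 100 counts stayed within 1.5 times. The causes were not tested, apart from the filters and limits that change how many genes can be counted. No paired analysis was possible because each group has 1 array and the labels carry no replicate numbers.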
